A study of Mus musculus with 4 samples.

Results

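Box H/ACA small nucleolar RNAs are short nuclear RNAs that fold into a pair of hairpins joined by a hinge. They were taken here as the annotated genes whose symbol starts with Snora followed by a digit and whose biotype is not small Cajal body RNA. This gave 42 of 47069 gene IDs, or 40 distinct symbols, because Snora16a and Snora43 each carry 2 gene IDs at one locus. The libraries came from C57BL/6 mice, an inbred strain, that carried Lewis lung carcinoma, an established mouse lung carcinoma line, under the skin. Tumours were cut out 3 weeks after inoculation, and 2 libraries were made from primary tumour RNA. The other 2 libraries were made from exosomes, small vesicles shed by cells. These were collected from serum-free RPMI medium in which pieces of tumour had been kept for 12 h, by a 0.2 µm filter and ExoQuick-TC precipitation without ultracentrifugation. The comparison of exosomes with tumour asks which RNAs differ in abundance between the tissue and the vesicles that it releases.

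In each H/ACA RNA the hinge holds the H box and the 3' tail holds the trinucleotide ACA, and the internal loops of the hairpins pair with a target RNA. The RNA sits in a particle with the pseudouridine synthase dyskerin and the proteins Nhp2, Nop10 and Gar1, and this particle turns chosen uridines of ribosomal RNA into pseudouridine. Most mammalian H/ACA RNAs are cut from introns of host genes, many of which encode ribosomal proteins or translation factors, and they act in the nucleolus. Telomerase RNA carries the same fold, as do some of the small Cajal body RNAs, a class of H/ACA, box C/D and mixed guides for spliceosomal RNA.

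The 5 members below are shown because the contrast between the groups turned on them: Snora57 and Snora28, each a main member in one group, Snora21 and Snora31, abundant in tumour and nearly missing from exosomes, and Snora17, whose direction turned with the scaling. The sequences are GENCODE M21 transcripts on GRCm38, written 5' to 3', with an ANANNA near the middle, the letters of the H box, and the ACA of the tail in capitals. The ANANNA was chosen by its letters and place, and a run in an unpaired stretch of the predicted fold was preferred. The fold is therefore not a separate check of the marked run. Snora17 holds 3 ANANNA runs in the window and Snora21 holds 2. In the predicted folds of Snora28, Snora21 and Snora31 the marked run is not in an unpaired stretch, so it marks a candidate H box.
Snora57: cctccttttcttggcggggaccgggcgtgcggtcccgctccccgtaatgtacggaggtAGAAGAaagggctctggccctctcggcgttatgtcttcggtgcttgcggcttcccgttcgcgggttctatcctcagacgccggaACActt
Snora28: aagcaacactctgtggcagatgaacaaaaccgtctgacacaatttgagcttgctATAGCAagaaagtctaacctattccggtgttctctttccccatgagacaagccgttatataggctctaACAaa
Snora21: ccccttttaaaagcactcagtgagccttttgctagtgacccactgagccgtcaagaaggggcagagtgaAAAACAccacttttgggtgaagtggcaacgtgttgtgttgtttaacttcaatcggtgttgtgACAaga
Snora31: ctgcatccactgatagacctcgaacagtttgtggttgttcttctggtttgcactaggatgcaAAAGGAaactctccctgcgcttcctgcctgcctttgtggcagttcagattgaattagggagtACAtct
Snora17: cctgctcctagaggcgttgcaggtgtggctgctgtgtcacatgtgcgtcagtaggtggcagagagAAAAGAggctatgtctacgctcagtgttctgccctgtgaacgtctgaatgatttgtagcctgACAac
Snora57 lies at chr19:8888538-8888685 on the minus strand, is 148 bases long, and has no annotated host on its strand. It lies within an intron of the protein-coding gene Lbhd1, which is on the plus strand. Snora28 (chr12:111540941-111541067, plus) lies in Eif5, a gene of a translation initiation factor, wholly on an annotated exon. Snora21 (chr11:97781639-97781775, minus) lies in an intron of the ribosomal protein gene Rpl23, and Snora31 (chr14:75847905-75848034, plus) in an intron of Tpt1, which encodes translationally controlled tumour protein. Snora17 (chr2:26639190-26639321, minus) has no host on its strand.

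The label held for the sequences. The letters ACA stood exactly 3 bases before the 3' end in 35 of the 42 members (83.3%), against 0.329% of 304 small nuclear RNA transcripts and 1.55% of 388 microRNA and miscellaneous RNA transcripts of 121 to 205 bases. In Snora28 and Snora17 the ACA stands 1 base closer to the end, as printed. An ANANNA that started between 35% and 65% of the length was found in 39 members (92.9%), against 35.2% and 35.3% of those other transcripts. Both motifs were found in 33 members (78.6%), against 0.329% and 1.03%. Both were searched on the transcript strand, and the window was chosen after seeing the sequences.

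The exosome libraries held 305751 and 217201 gene counts and the tumour libraries 14543691 and 10849811, so that the tumour libraries together held 48.6 times as many. Gene counts do not give the number of reads sequenced. A single count in an exosome library equals 3.27 or 4.60 CPM (the count scaled to a fixed library total), and a 0 there does not show that an RNA is missing. Nothing in the labels says that replicates came from separate animals, so p-values speak of the spread among libraries and no further. An exact permutation test of 2 libraries against 2 cannot give a p below 0.333, so shares are described without a test. Of other nuclear RNAs, Rn7sk had 49.1 and 50.6 CPM in exosomes against 411 and 405 in tumour and was called lower. Malat1 had 19.6 and 23.0 CPM against 10.7 and 9.12, so it was higher per library total, although with TMM it was called lower (edgeR log2 difference -1.69, adjusted p = 0.00352). Neat1 (16.4 and 27.6 CPM against 5.50 and 3.32) and Xist (3.27 and 9.21 against 1.24 and 1.47) were not called, and Meg3 had 0 and 2 counts in exosomes and none in tumour. Markers of leukocytes summed to 2 and 10 counts in exosomes and 84 and 40 in tumour, those of endothelium to 3 and 4 against 14 and 8, and those of carcinoma and stroma to 55 and 39 against 281 and 152, and no tested gene of these 3 lists was called. The 4 globin genes summed to 82 and 102 against 1642 and 873, with Hba-a1 and Hba-a2 called lower with TMM. Per library total both were higher in exosomes. Hba-a1 had 55.6 and 101 CPM against 25.2 and 20.8 in tumour, and Hba-a2 had 65.4 and 82.9 CPM against 24.8 and 18.8. The marker sums are raw counts of libraries with unlike totals, so they give no direction. Krt8, the leukocyte markers Ptprc, Cd68 and Cd14, and the endothelium markers Pecam1 and Kdr did not pass the filter for testing. Tested were thus 4 of 5 carcinoma and stroma markers, 2 of 5 of leukocytes and 1 of 3 of endothelium. The part of nuclear RNA content or of cell types in the results was not tested, and in bulk RNA fewer cells of a type and less RNA per cell cannot be told apart.

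H/ACA RNAs differed in makeup between exosomes and tumour, while the direction of their summed share rested on the denominator. Summed H/ACA counts were 853 and 540 in the exosome libraries and 57080 and 41060 in the tumour libraries. As a share of all gene counts this was 0.279% (exact Clopper-Pearson 95% interval 0.261 to 0.298) and 0.249% (0.228 to 0.270) in exosomes. In tumour it was 0.392% (0.389 to 0.396) and 0.378% (0.375 to 0.382), so the exosome libraries lay below both tumour libraries. The group means were 0.264% ± 0.0215 and 0.385% ± 0.00992 (SD, n = 2). Of counts without genes annotated as small nuclear, ribosomal or ribozyme RNA the share was 3.47% and 2.70% in exosomes and 0.396% and 0.382% in tumour, which reverses the direction. Intervals of this kind cover counting error only, since reads without molecular identifiers are not independent molecules.

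Snora57 and Snora68 carried almost all H/ACA counts in exosomes. Without those 2 members, the H/ACA share was 0.0121% and 0.0106% in exosomes and 0.170% and 0.157% in tumour. The 2 were chosen from these same counts and Snora28 was left in, so this gap is a description. Snora28 held 21982 of the 24665 remaining counts in tumour 1 and 15162 of 16984 in tumour 2. Without Snora57 and Snora68 the exosome mean was 0.0113% ± 0.00107 against 0.163% ± 0.00923 in tumour (SD, n = 2). These are shares of all gene counts. Without small nuclear, ribosomal and ribozyme RNA the totals were 24602 and 20036 in exosomes and 14409947 and 10760099 in tumour. Against them the remaining H/ACA counts, 37 and 23 in exosomes and 24665 and 16984 in tumour, show a far smaller gap. Snora68 and Snora57 together were 95.7% of pooled exosome H/ACA counts, whereas Snora68 and Snora28 together were 93.8% of pooled tumour H/ACA counts. The member beside Snora68 was thus Snora28 in tumour and Snora57 in exosomes.

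The percentage of each member within the H/ACA counts of its own library needs no scaling between libraries. Snora68 was the most abundant member in every library, with 68.1% and 51.3% of H/ACA counts in exosomes and 55.2% and 57.0% in tumour, and the groups overlapped. Snora57 made up 27.5% (24.6 to 30.7) and 44.4% (40.2 to 48.7) in exosomes, against 1.54% (1.44 to 1.64) and 1.60% (1.48 to 1.72) in tumour. Both exosome values lay far above both tumour values, although the exosome libraries differed from each other beyond counting error. Snora28 made up 1.29% and 1.30% in exosomes and 38.5% and 36.9% in tumour, with close values within each group. Snora17 had 2.23% and 1.11% in exosomes against 0.543% and 0.575% in tumour, and its second exosome interval (0.409 to 2.40) covered the tumour values.

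**Figure D1:**
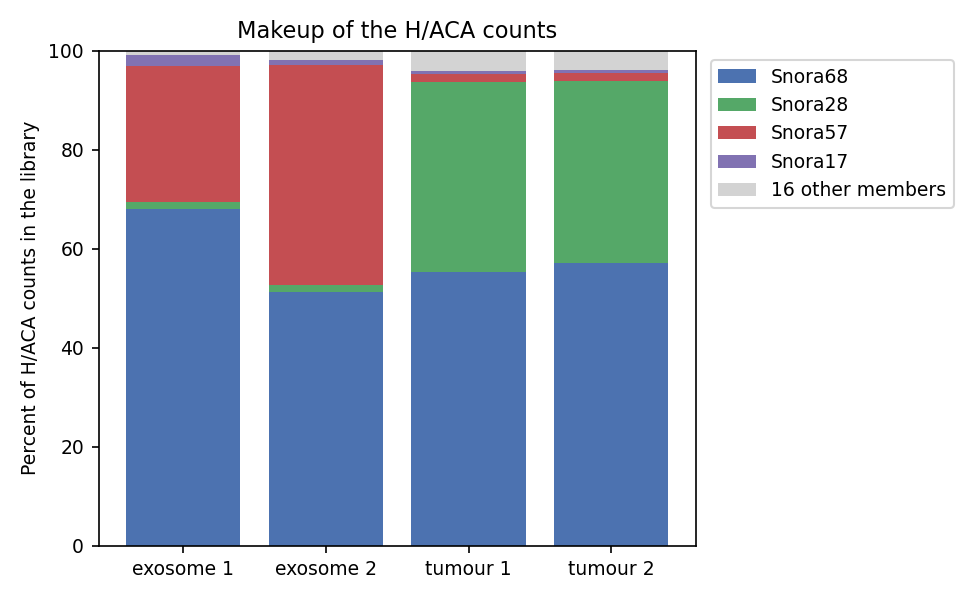
Stacked bars give the percent of all H/ACA counts in each of the 4 libraries (y axis, 0 to 100) that fell on Snora68, Snora28, Snora57, Snora17 and the 16 other members with a count. Snora28 is a wide band in the tumour bars (38.5% and 36.9%) and a thin line in the exosome bars, where Snora57 takes 27.5% and 44.4%.

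Ratios of counts within a library show the same contrast. For each count of Snora68 there were 0.404 and 0.866 counts of Snora57 in exosomes and 0.0279 and 0.0280 in tumour. For each count of Snora68 there were 0.0189 and 0.0253 counts of Snora28 in exosomes and 0.697 and 0.647 in tumour. Tumour libraries held 25.0 and 23.1 counts of Snora28 for each count of Snora57, and exosome libraries 0.0468 and 0.0292. Each of these 3 ratios separated the groups without overlap, and the ratios of the tumour libraries were close to each other. The ratio of Snora28 to Snora57 follows from the other ratios, so it is not separate evidence. The members were chosen from these same counts, so the gaps are a description. How many other pairs of members would separate the groups was not computed.

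Per length, the order of the leading members changed between the groups. The deposited FPKM (counts scaled to gene length and library total) of Snora57 were 5193 and 7466 in exosomes and 408 and 409 in tumour. Those of Snora28 were 283 and 254 in exosomes and 11901 and 11003 in tumour, while those of Snora68 were 14506 and 9735 in exosomes and 16552 and 16478 in tumour. In exosomes Snora68 (12120 ± 3373) was followed by Snora57 (6330 ± 1607) and, far below, Snora28 (269 ± 20.9; mean ± SD, n = 2). In tumour Snora68 (16515 ± 52.9) was followed by Snora28 (11452 ± 635) and then Snora57 (408 ± 0.111). Within each group these 3 levels did not overlap.

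**Figure D2:**
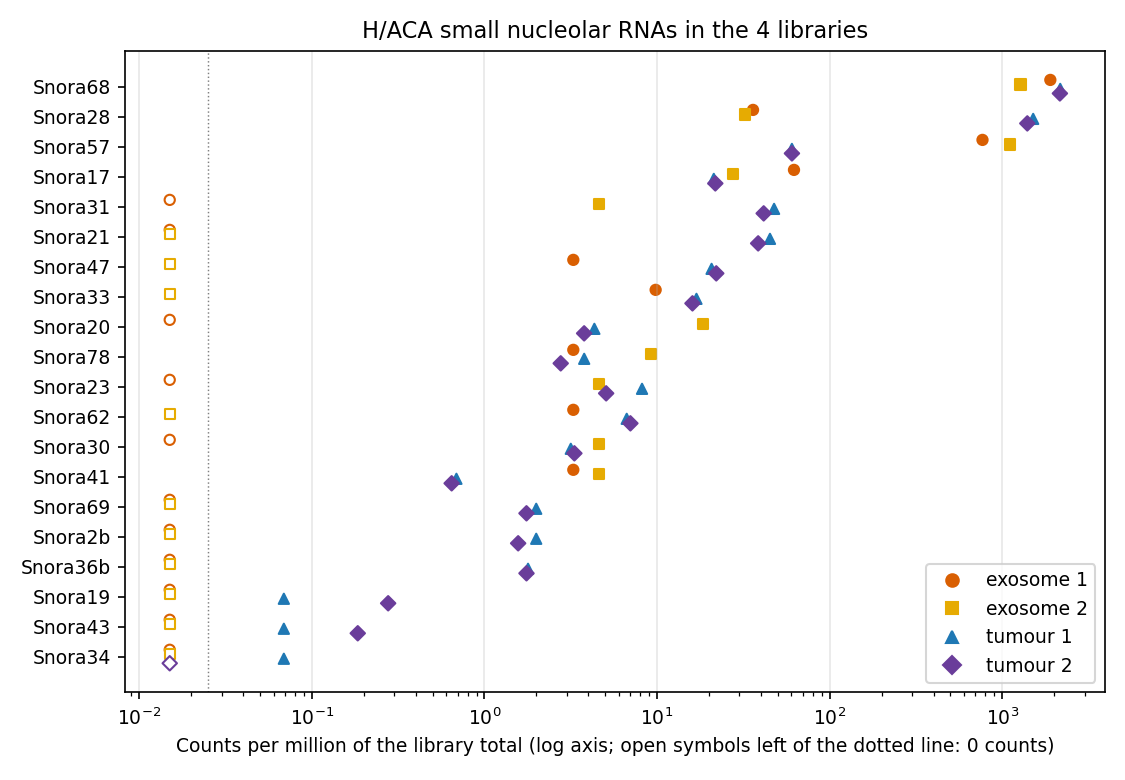
Each point is the level of a member in one library, in CPM of the library total (x axis, log scale), for the 20 members with a count, ordered by mean level. Open symbols left of the dotted line stand for 0 counts; Snora57 has both exosome points far to the right of its tumour points, and Snora28, Snora31 and Snora21 have theirs far to the left.

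A test across all genes was then made with edgeR's quasi-likelihood test after TMM scaling, with Benjamini-Hochberg adjustment over the 1442 genes that passed the low-count filter. Of the 42 members 14 were tested. Lower in exosomes were 11 members, against a background of 22.1% of all tested genes, and higher was 1, Snora57, against a background of 16%. Snora20 and Snora41 were not called. Past the filter through the tumour libraries alone, where they are high, were 8 members, 7 of them lower, and through the exosome libraries alone Snora41, so the count of 11 is a description. The 8 were Snora20, Snora21, Snora23, Snora30, Snora31, Snora33, Snora47 and Snora62, and a call among them is not independent of the filter. The other 5 passed in both groups, and 4 of them were lower and Snora57 higher. The median log2 difference, exosomes minus tumour, was -3.87 over the 14 members and 0.018 over all 1442 genes. With library totals in place of TMM all genes shifted upward to a median of 2.75, and the members had a median of -1.14. Then 4 members were lower, against a background of 11.5%, and 2 were higher, against a background of 63.8%. A further scaling, to the summed H/ACA counts, was added once the data had been seen, and gave a median of 3.29 over all genes. By this scaling 4 members were lower (background 9.78%) and 3 were higher (background 71.1%). Snora28, Snora31, Snora21 and Snora47 were called lower under all 3 scalings, and of these only Snora28 passed the filter in both groups.

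Snora57 was the only member called higher with TMM, and its direction against all genes rests on the scaling. Its counts were 235 and 240 in exosomes and 879 and 656 in tumour, and per library total its level was 769 and 1105 CPM in exosomes and 60.4 and 60.5 CPM in tumour. The fitted log2 difference was 1.14 (SE 0.14, edgeR adjusted p = 0.000357), 3.95 with library totals (SE 0.26, adjusted p = 5.68e-19) and 4.51 scaled to H/ACA counts (SE 0.30, adjusted p = 1.03e-10). It was called in each fit that left out 1 library from the same genes, with differences from 1.0 to 1.25. DESeq2 gave 0.39 (adjusted p = 0.993). The difference was -0.54 after scaling by summed FPKM and -0.05 with no filter, and without tumour replicate 1 or 2 and with the filter reapplied it was -1.14 or -1.07, called lower in both fits (adjusted p = 0.00402 and 0.00406). Snora57 had the highest difference of all fitted members in 22 of 23 settings, all but DESeq2, where Snora34 with 1 count stood above it. A change of scaling moves all members by about the same amount, so its rank under other scalings is not separate evidence. The difference of Snora57 exceeded that of Snora68 by 3.86 to 4.96, a gap that changes of scaling barely alter.

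Snora68 lay between Snora57 and Snora28 in its difference. It had 581 and 277 counts in exosomes and 31536 and 23420 in tumour, or 1900.2 and 1275 CPM against 2168 and 2159. Both exosome levels lay below both tumour levels, and the first lay closer to the tumour than to the other exosome library. The log2 difference was -3.21 with TMM (SE 0.28, edgeR adjusted p = 3.69e-05), and the call was lost with library totals (-0.44, adjusted p = 0.0649). Scaled to H/ACA counts the difference was 0.092 (SE 0.24, adjusted p = 0.724), a value that the scaling draws to 0 because Snora68 is itself most of that sum. With TMM it lay 4.34 below Snora57 and 4.97 above Snora28.

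Snora28, which guides modification of the RNA of the small ribosomal subunit, had the lowest fitted difference of the members with an exosome count. It had 11 and 7 counts in exosomes against 21982 and 15162 in tumour, or 36.0 and 32.2 CPM against 1511 and 1397. Replicates were close in each group and the groups lay far apart. The log2 difference was -8.18 with TMM (SE 0.22, edgeR adjusted p = 8.89e-08), -5.40 with library totals (adjusted p = 4.80e-20) and -4.87 scaled to H/ACA counts (SE 0.35, adjusted p = 2.26e-10). The difference of Snora68 exceeded that of Snora28 by 4.73 to 5.14 over the 23 settings, a gap that changes of scaling barely alter.

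**Figure D3:**
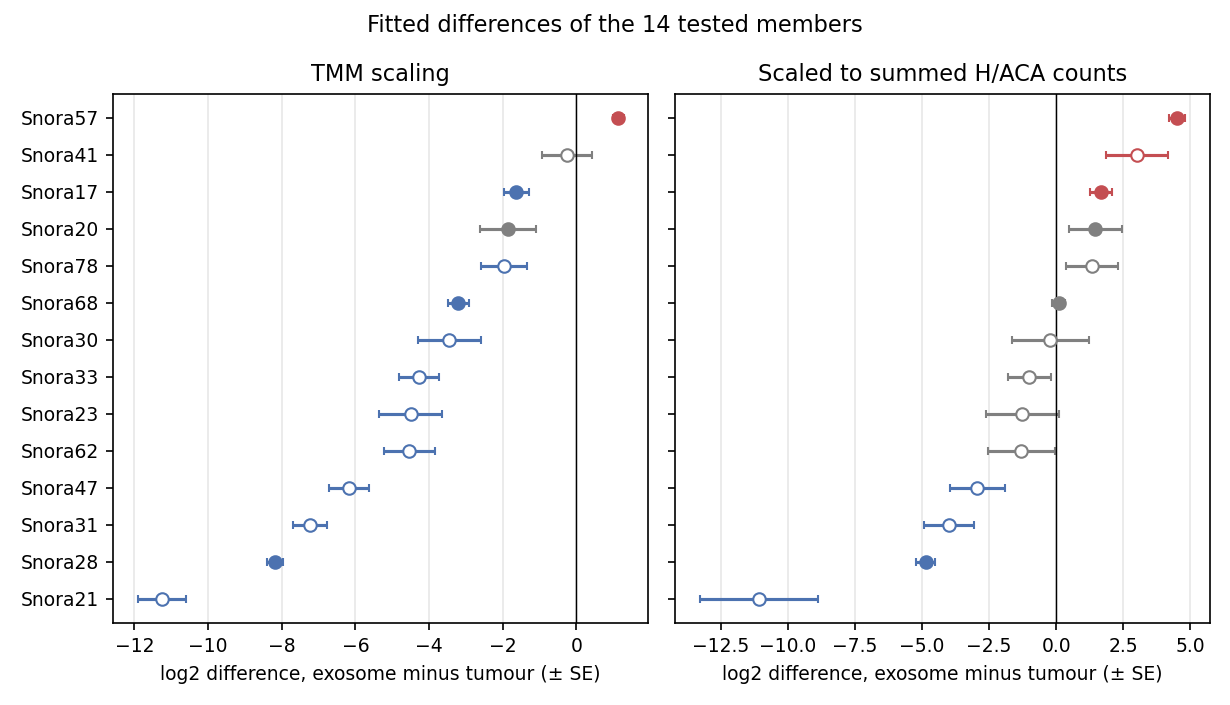
Points give the fitted log2 difference, exosome minus tumour, of the 14 tested members (x axis) with bars of 1 SE; the left panel uses TMM and the right panel scaling to the summed H/ACA counts. Red and blue mark members called higher and lower at an adjusted p under 0.05, grey marks members not called, and open symbols mark at most 3 exosome counts in all; Snora57 stands apart at the top in both panels, and the fitted value of Snora21, with no exosome count, is not a bound.

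Snora21, a guide for the RNA of the large subunit, had 0 and 0 counts in exosomes against 656 and 418 in tumour. With a floor of 3 counts per library it was at least 24.9-fold lower with TMM (edgeR adjusted p = 1.22e-05) and at least 3.54-fold lower with library totals. Snora31, another guide for that RNA, had 0 and 1 counts against 693 and 450, with a log2 difference of -7.23 (SE 0.47, adjusted p = 5.87e-06). Per library total, the exosome level of Snora31 was 0.0425 of that in tumour, with a counting interval of 0.00107 to 0.237. Snora47 had 1 and 0 counts against 301 and 239, a log2 difference of -6.18 (SE 0.55, adjusted p = 4.23e-05) and a ratio per library total of 0.0899 (0.00227 to 0.503). These 3 members had at most 1 count in any exosome library, and their intervals per library total stayed below 1 where one could be given. All 3 passed the filter through the tumour libraries alone, so their calls are not independent of it.

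Snora17 changed sign with the scaling. It had 19 and 6 counts in exosomes and 310 and 236 in tumour, or 62.1 and 27.6 CPM against 21.3 and 21.8, and the exosome libraries lay above both tumour libraries per library total. The log2 difference was -1.63 with TMM (SE 0.34, edgeR adjusted p = 0.00632), 1.13 with library totals (adjusted p = 0.0127) and 1.66 scaled to H/ACA counts (SE 0.42, adjusted p = 0.00176). Like Snora57 it is one of the few members with no annotated host on its strand, a group of 4 gene IDs that also holds both IDs of Snora43.

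The other tested members had few exosome counts. Snora33, in an exon of the ribosomal protein gene Rps12, had 3 and 0 counts in exosomes and 246 and 174 in tumour (log2 difference -4.28, edgeR adjusted p = 0.000399). Snora62, also known as E2 and hosted by Rpsa, had 1 and 0 against 97 and 76 (-4.53, adjusted p = 0.00116). Snora23 in Ipo7 had 0 and 1 against 119 and 55 (-4.50, adjusted p = 0.00385), and Snora30 in Srcap had 0 and 1 against 46 and 36 (-3.46, adjusted p = 0.0141). None of these 4 was called with library totals, where adjusted p ranged from 0.0675 to 0.608. All 4 passed the filter through the tumour libraries alone, so their calls with TMM are not independent of it. Of the 11 members called lower, 8 had at most 3 exosome counts over both libraries.

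The calls nearest to the threshold changed with single libraries and with the tool. Snora78, in the noncoding host Snhg9, had 1 and 2 counts in exosomes and 55 and 30 in tumour, with a log2 difference of -1.96 (SE 0.62, edgeR adjusted p = 0.0413). Its call was lost without exosome replicate 1 (-1.45, adjusted p = 0.209), without tumour replicate 1 (-1.74, adjusted p = 0.141) and without tumour replicate 2 (-2.11, adjusted p = 0.0657), and with library totals it had 0.79. It was also lost with a filter of at least 10 counts in 2 libraries (adjusted p = 0.107) and with DESeq2 (adjusted p = 0.715). The call of Snora30 was lost without exosome replicate 1 (-2.40, adjusted p = 0.0646) and with DESeq2 (adjusted p = 0.365). Snora20 in Tcp1 had 0 and 4 counts against 63 and 41 (-1.85, adjusted p = 0.103), and without exosome replicate 2, which held all 4, it was called lower (adjusted p = 0.00182). Snora41 in Eef1b2 had 1 and 1 counts against 10 and 7 (-0.25, adjusted p = 0.907), and scaled to H/ACA counts it had 3.02 (SE 1.15, adjusted p = 0.0373). Snora41 passed the filter only through its single count in each exosome library, so that call is not independent of the filter.

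The 6 members with a count that were not tested had none in exosomes. Snora69 had 29 and 19 counts in tumour, Snora2b 29 and 17, and Snora36b 26 and 19. With TMM and the floor of 3 counts per library the bounds were at least 1.11-fold lower for Snora69, 1.06-fold for Snora2b and 1.05-fold for Snora36b, and on library totals their tumour levels lay under the floor, so no fold could be given. Snora19, Snora43 and Snora34 had at most 3 counts in any library. Exosome libraries thus held 9 and 10 members, 6 of them in both and 13 in either, and tumour libraries 20 and 19.

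Because the exosome libraries held few gene counts, counts were also read against those expected if exosomes had the pooled tumour share of each member. Snora57 had 235 and 240 counts where 18.5 and 13.1 were expected, 12.7 and 18.3 times as many. Snora28 had 11 and 7 where 447 and 318 were expected, Snora31 had 0 and 1 where 13.8 and 9.78 were expected, and Snora21 had 0 and 0 where 12.9 and 9.19 were expected. For Snora68 the counts of 581 and 277 stood against 662 and 470, and for Snora17 those of 19 and 6 against 6.57 and 4.67. Of the 20 members, 14 lay below this expectation in both exosome libraries and 3 above it in both, Snora57, Snora17 and Snora41. Snora21 and the 6 members with a count that were not tested had no exosome count, so they lay below it by definition. The share of all genes on either side was not computed. With library totals the median log2 difference over all 1442 tested genes was 2.75, so lying above the tumour share was common. Most of the 14 had expected counts too low for a shortfall to be seen.

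**Figure D4:**
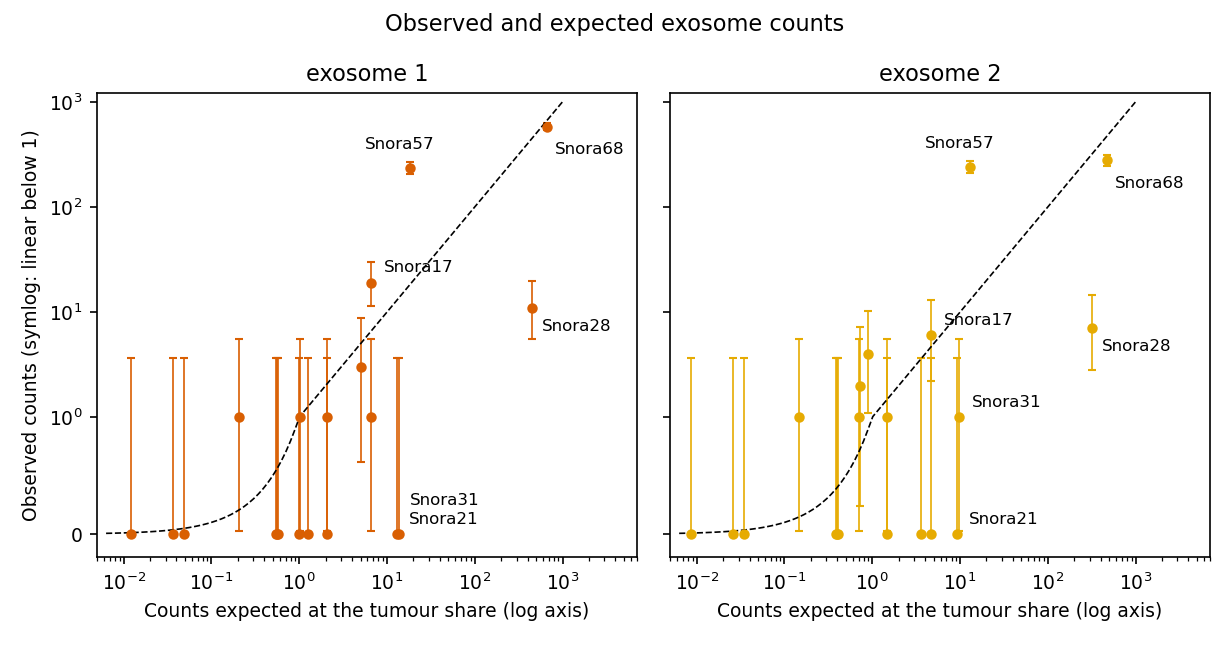
For each of the 20 members with a count, the observed counts in exosome 1 and exosome 2 (y axis, linear below 1 and log above) are set against the counts expected at the pooled tumour share (x axis, log scale); bars are exact Poisson 95% intervals and the dashed line marks equality. Snora57 lies above the line (235 and 240 observed, 18.5 and 13.1 expected) and Snora28 below it (11 and 7 observed, 447 and 318 expected), with Snora31 and Snora21 at or near 0.

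Among the members with counts, some near-identical annotated copies could have shared reads with them. The copy of Snora57, Gm26132, lies at chr8:110923116-110923263 on the plus strand in an intron of St3gal2. It is shown because it behaved unlike Snora57, with the 6 bases that differ in capitals.
Gm26132: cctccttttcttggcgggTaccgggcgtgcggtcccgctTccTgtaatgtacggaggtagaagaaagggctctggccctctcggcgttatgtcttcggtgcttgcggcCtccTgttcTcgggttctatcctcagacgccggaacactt
In positions counted from the 5' end of Snora57 the changes are G19T, C40T, C43T, T109C, C113T and G118T, which leaves 95.9% identity over 148 bases. Gm26132 had 0 and 1 counts in exosomes and 110 and 101 in tumour, with a log2 difference of -4.83 (SE 0.74, edgeR adjusted p = 0.00116). Of the counts on both loci, Gm26132 took 0 of 235 in exosome 1, which allows a share of up to 1.28%, and 0.415% (0.0105 to 2.29) in exosome 2. In tumour it took 11.1% (9.23 to 13.2) and 13.3% (11 to 16). The locus of the printed Snora57 sequence therefore held nearly all exosome counts of the pair. Snora68 has a copy, Gm22661, with 95.3% identity, which had 2 counts in each tumour library and none in exosomes. For Snora28 no such copy was found.

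The 22 members at 0 in all 4 libraries differed from the other 20 in their position within host genes. Of the 22, 19 overlapped an annotated exon of a larger gene on the same strand, 16 of them wholly, and of the 20 with a count 4 did: Snora28, Snora33 and Snora68 wholly and Snora2b over 67.2% of its length. Being in a host was common to both sets, since 38 of the 42 members lie inside a host on their strand, 21 of the 22 and 17 of the 20. Box C/D small nucleolar RNAs, which guide methylation of ribosomal RNA, showed the same split: 32 of 41 genes at 0 overlapped such an exon, against 9 of 58 with a count. How the authors' counting treated reads on overlapping genes is not given in the sources used here, and its part in these zeros was not tested. A member listed at 0 is therefore not read as absent.

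**Figure D5:**
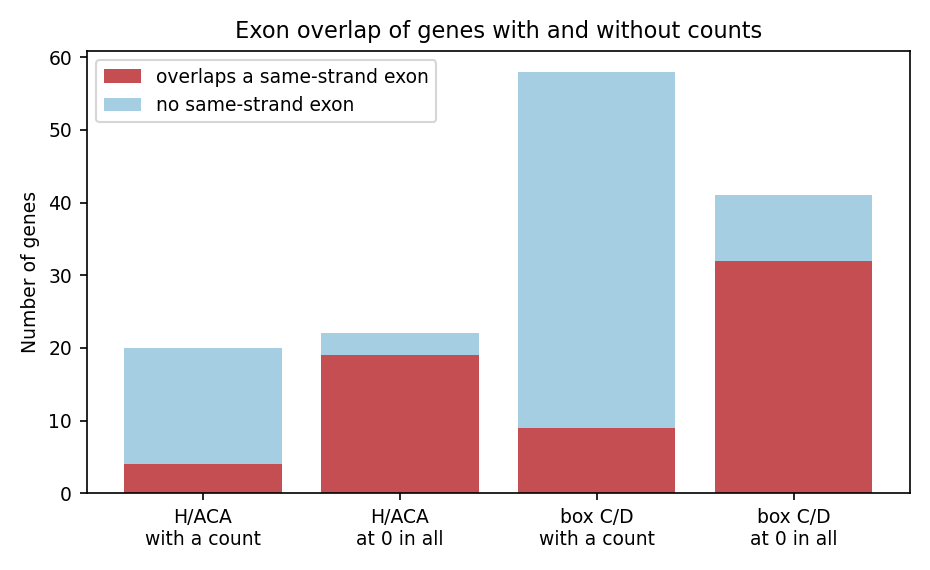
Bars give the number of H/ACA and box C/D small nucleolar RNA genes (y axis, from 0) with a count in any library and at 0 in all 4, split by overlap with an annotated exon of a larger gene on the same strand. The bars at 0 are mostly red (19 of 22 H/ACA and 32 of 41 box C/D genes), and the bars with a count mostly blue.

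The members at 0 include RNAs that are abundant in many cells. Snora73a and Snora73b, the U17 RNAs that take part in cleavage of the ribosomal RNA precursor, were at 0 in all 4 libraries, and are 98.0% identical to each other. Snora73a lies over 77.6% of its length on an exon of its host, and Snora73b is one of 3 members at 0 with no overlap of an exon of a larger gene on its strand. The other 2 are Snora35, inside Htr2c, and the shorter ID of Snora43, which overlaps the longer one. On the opposite strand, exons of larger genes cover 205 of the 205 bases of Snora73b and 175 of the 205 bases of Snora73a. The strand setting of the counting is not given in the sources used here. Snora75 in Ncl, Snora7a in Rpl32, Snora81 in Eif4a2 and Snora52 in Rplp2 lie wholly on exons and were at 0.

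For 7 of the members at 0, a near-identical copy elsewhere in the genome did have counts. Snora26 was at 0, while Gm24233 (chr12:59134072-59134193, plus), 90.8% identical to it, had 8 and 11 counts in exosomes and 2071 and 1398 in tumour. This copy had a log2 difference of -4.67 (SE 0.22, edgeR adjusted p = 9.50e-07), so it was lower in exosomes as most tested members were. Gm24613, a copy of Snora65 with 98.5% identity, had 2 and 6 counts in exosomes against 37 and 16 in tumour. Gm26165, 90.6% identical to Snora70, had 1 and 2 against 62 and 63, and Gm23346, 98.5% identical to Snora5c, had 0 and 0 against 54 and 37. How the authors' counting placed reads that match several loci is not given in the sources used here, so values of such pairs are uncertain. Summing copies with their members gave 19 tested members, 15 lower and 1 higher, beside 322 lower and 228 higher of all 1440 genes tested.

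Box C/D small nucleolar RNAs took up most of the tumour counts and few of the exosome counts. The 99 genes of this class, taken by symbol (Snord followed by a digit), held 0.539% and 0.478% of exosome counts and 63.4% and 64.3% of tumour counts. With TMM all 47 that were tested were lower (background 22.1%), with a median log2 difference of -9.86 and a range from -14.44 to -1.88. A fitted value of a gene with no exosome count is not a bound. How many of the 47 passed the filter through the tumour libraries alone was not examined. H/ACA RNAs were 34.1% and 34.2% of the counts of both classes in exosomes and 0.616% and 0.585% in tumour. Without Snora57 and Snora68 these values were 2.19% and 2.17% against 0.267% and 0.243%, so the other H/ACA members also kept a larger share of the pair of classes. This share needs no scaling, and its groups did not overlap.

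Of 17 tested small Cajal body RNAs, box C/D and mixed ones included, 11 were lower (background 22.1%) and 1 was higher (background 16%), with a median of -2.75. Among the 11, Gm22009, Gm22442, Scarna2, Scarna6 and Scarna9 had no count in exosome 1 and passed the filter through the tumour libraries alone. Their calls are not independent of the filter, so the count of 11 is a description. Telomerase RNA, Terc, had 173 and 217 counts in exosomes and 73 and 53 in tumour, with a log2 difference of 4.47 (SE 0.22, edgeR adjusted p = 1.33e-06). Terc and Snora57 thus had the same direction and most members the other.

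Messenger RNAs of the H/ACA pathway were too scarce for most tests. The core protein genes Dkc1 (dyskerin), Nhp2, Nop10 and Gar1 summed to 2 and 0 counts in exosomes and 8 and 7 in tumour, and none of the 4 was tested. Of 8 assembly factors only Nolc1, a nucleolar chaperone of these particles, was tested, with 5 and 2 counts against 7 and 3 and a log2 difference of 2.27 (SE 0.59, edgeR adjusted p = 0.0185). Nolc1 passed the filter only through the exosome libraries, where it is high (16.4 and 9.21 CPM against 0.481 and 0.277), so this call is not independent of the filter. None of 5 trimming and tailing enzymes and none of 12 stand-alone pseudouridine synthases was tested. The box C/D proteins Nop56 (-1.80, adjusted p = 0.125) and Nop58 (-0.55, adjusted p = 0.749) were not called, nor were the nucleolar genes Ncl (-0.57, adjusted p = 0.302), Npm1 (-1.30, adjusted p = 0.0607) and Ubtf (0.49, adjusted p = 0.711).

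Most tested host gene transcripts were not called in either direction. Of 34 host genes 31 had a count and 18 were tested, of which 1 was lower (background 22.1%) and 1 higher (background 16%), with a median log2 difference of -0.42. Eif3a, host of Snora19, was lower with TMM (-1.48, SE 0.41, edgeR adjusted p = 0.0232). Per library total Eif3a was higher, with 9.81 and 23.0 CPM in exosomes against 6.12 and 6.45 in tumour. Rpsa, host of Snora62, was higher with TMM (1.64, SE 0.47, edgeR adjusted p = 0.0288) while Snora62 was lower. Rpsa had 22.9 and 46.0 CPM in exosomes and 1.86 and 1.11 CPM in tumour, which would not have passed the filter by the tumour libraries alone. Tpt1 had 6 and 7 counts against 43 and 30 (0.34, adjusted p = 0.637), with Snora31 in its intron at -7.23. Rpl23 had 7 and 3 against 30 and 22 (0.44, adjusted p = 0.578), with Snora21 at 0 in both exosome libraries. Eif5, host of Snora28, had 0 and 1 against 9 and 11 and was not tested. The difference between a host and its member was itself not tested.

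Sequence features were compared with the fitted differences over the 14 tested members, as a description without a test. Members with a more stable predicted fold tended to have higher fitted differences. The minimum free energy per base had Pearson's r = -0.71 and Spearman's rho = -0.67. Without Snora28 and Snora78, the members farthest from the median of that energy, r was -0.68. The members with the most extreme differences, Snora21 and Snora57, were not left out. GC content had r = 0.35 and rho = 0.25, and r fell to 0.0079 without Snora57 and Snora78. Length had r = 0.023 and rho = 0.0088, and the log2 tumour FPKM had r = -0.37 and rho = -0.32. All points share the same 4 libraries, and 10 of the 14 members had at most 5 exosome counts. The fitted value of Snora21, with no exosome count, is not a bound, and 8 of the 14 passed the filter through the tumour libraries alone. Over the 20 members with a count, log2(count + 1) correlated between the tumour libraries with r = 0.99 (rho = 0.99) and between the exosome libraries with r = 0.93 (rho = 0.58). Between exosome 1 and tumour 1 it had r = 0.68 (rho = 0.62), and between exosome 2 and tumour 2 r = 0.65 (rho = 0.56).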

How the data were processed

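Total RNA of 4 libraries was sequenced, and the labels gave the groups. The deposited table holds a count per gene and library, a whole number with no normalization per the file headers, and an FPKM that the authors scaled to gene length and library total. TopHat2 2.0.9, Cufflinks 2.1.1, Cuffdiff and GRCm38.p4 are named in the submitters' processing notes. The annotation is not given in the sources used here, nor is the counting tool with its strand setting and its treatment of reads that match several loci. GENCODE M21 supplied symbols, biotypes, coordinates and sequences for 46574 of 47069 gene IDs, and 14421 IDs had a count. The host gene and sequence of Snora68 are not reported here.

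The test was the two-sided quasi-likelihood test of edgeR 4.0.16 (R 4.3.3) on group alone, with Benjamini-Hochberg adjustment at 0.05. TMM factors came to 2.41 and 2.93 (exosome) and to 0.388 and 0.365 (tumour). A low-count filter (filterByExpr, minimum count 10, minimum total 15, equal to 1.79 CPM in 2 or more libraries) left 1442 genes. An SE is the absolute log2 difference over the square root of F. The fit was tested on simulated data. Where a group had no count, bounds took 3 counts in each library as its floor. A copy is an annotated transcript with 90% or more identity along 80% or more of the longer of the pair, by blastn 2.17.0. Folding energies came from RNAfold 2.7.2. The naming rule took the 12 members with the highest mean CPM, those called higher, the 6 with no exosome count and most tumour counts, the 6 tested nearest to the threshold, and Snora73a and Snora73b. This named 21 members, and the others in the text were chosen after their values were seen. Members, lists and tests were all chosen with earlier results of these data known. DESeq2 1.42.0, other scalings and filters, a block for replicate number, the omission of single libraries or of box C/D genes, thinned tumour libraries and summed copies served as alternatives. Scaling to summed H/ACA counts, and omission of a library with the filter reapplied, were added once the data had been seen.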

Additional observations from a re-analysis of the deposited data

How the results depend on the processing

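Main results were 11 members lower and 1 higher, and among the 24 tested genes of the protein, assembly, Terc and host lists 1 lower and 3 higher. Members lower numbered 4 with library totals, 4 scaled to summed H/ACA counts, 3 with tumour thinned to exosome depth (4 tested), and 6 without tumour replicate 1 or 2 with the filter reapplied (6 tested each). With each library left out they were 9 to 12 with the same genes and 6 to 12 with the filter reapplied. Members higher numbered 2 with library totals, 3 scaled to H/ACA counts and 0 with summed FPKM, no filter, DESeq2 and, with the filter reapplied, without either tumour library, while leaving out a library from the same genes gave 1. List genes lower numbered 0 with library totals, H/ACA scaling, thinning, DESeq2 and at least 10 counts, 2 with median-of-ratios (RLE) scaling, TMMwsp, without Snord genes and with copies summed, 17 with summed FPKM and 13 with no filter, and 0 to 2 with a library left out. List genes higher numbered 17 with library totals, 19 with H/ACA scaling, 1 with summed FPKM, thinning and DESeq2, and 1 to 3 with a library left out. Over all genes the split of 318 lower and 230 higher became 166 and 920 with library totals, 141 and 1025 with H/ACA scaling and 715 and 133 with summed FPKM. It was 610 and 215 with no filter, 121 and 168 after thinning, and 254 and 157 with DESeq2. With the filter reapplied it was 190 and 108 of 394 genes without tumour replicate 1, and 197 and 82 of 397 without tumour replicate 2.

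The sign turned for Snora57 (-0.54 with summed FPKM, -0.048 with no filter, -1.14 and -1.07 without tumour replicate 1 or 2 with the filter reapplied) and for Snora68 (0.092 with H/ACA scaling). With library totals and with H/ACA scaling it turned for Snora17 (1.13 and 1.66), Snora20 (0.92 and 1.45), Snora78 (0.79 and 1.33) and Snora41 (2.48 and 3.02). These scalings move all genes upward by construction; for the other settings the cause was not tested. Of counts without small nuclear, ribosomal and ribozyme RNA, the H/ACA share was 3.08% in exosomes and 0.389% in tumour, the opposite direction to 0.264% and 0.385% of all counts. With copies summed the shares were 0.271% and 0.403%. With FPKM in place of counts, Snora28 was 1.39% of exosome H/ACA and Snora57 1.38% of tumour H/ACA. With a library left out, exosome H/ACA shares ranged from 0.249% to 0.279% and tumour shares from 0.378% to 0.392%. Over the named members 243 alternative values kept direction and call, 19 lost the call, 5 gained it and 13 changed sign.

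The labels do not say whether libraries with the same number share a tumour, and deviations of same-numbered libraries correlated with r = -0.020 over 1442 genes, which does not settle it, so pairing was not assumed. With a replicate block 12 members were lower, Snora20 among them, and 1 was higher, 2 list genes were lower, and 345 of all genes were lower and 244 higher. The low count totals of the exosome libraries limit low members: 1 count there is 3.27 or 4.60 CPM, more than the tumour level of several members.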

Other observations

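Gm24644, an annotated small Cajal body RNA, had 4 and 8 counts in exosomes and none in tumour and was not tested, and Gm24289, another, had 56 and 71 against 137 and 90 and was the one called higher in its class (log2 difference 2.00, SE 0.23, edgeR adjusted p = 0.000195). Scarna2 had no exosome count against 297 and 282 in tumour, and Scarna9 none against 158 and 107. These genes were chosen after their values were seen.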
